A study of Mus musculus with 12 samples.

Results

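RNA of dissociated hippocampus from newborn mice was compared with RNA of cultured astrocytes. The P0-NPC samples were single-cell suspensions made by trypsinization of the hippocampus of C57BL/6J mice at postnatal day 0, without a sort or a culture step that the methods name. The AST samples were primary astrocytes of the cerebral cortex of early postnatal C57BL/6 mice, grown as a passaged monolayer in DMEM with fetal bovine serum and taken at day 0 of a later sphere culture. Each group held 3 of the 12 samples of the series, and the P0-NPC samples served the study as a control for neural stem cells. Where a contrast with adult tissue was of use, the 3 P56-NPC samples were taken, which were suspensions of the subependymal zone of C57BL/6J mice at postnatal day 56. The methods speak of independent experiments in general, without naming the sequencing samples. How many animals gave each sample, and whether replicates came from separate animals, is not given in the sources used here, so p-values measure the spread between these samples, which may be technical. No transgene, deletion or drug is named for any of these groups. The groups of a comparison differed at once in brain region, age or culture, and these cannot be told apart.

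Expression was given in FPKM, the fragments of a gene per kilobase of its transcript and scaled by library size. Of 55862 genes in the table, 15010 had a mean FPKM of at least 1 in AST or P0-NPC, and these were compared. Fold changes are differences of log2(FPKM + 1) ± the standard error (SE) of the limma fit, so they understate the change of low genes, and calls were made where the adjusted p (Benjamini-Hochberg) was under 0.05. Of the 15010 genes, 79.0% were called, with 5713 (38.1%) higher and 6146 (40.9%) lower in P0-NPC. Each count of called genes in a list stands against these shares. When the log2 fold change had to exceed 1 in size as well, 3029 genes (20.2%) were higher and 2813 (18.7%) lower. The median log2 fold change of all tested genes was -0.07. Scaling the samples by library size alone moved this median to 0.21 and the calls to 7106 higher and 4860 lower, so small differences have a direction only relative to that shift.

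The newborn hippocampus contains cells at every step from the dividing stem cell to the young neuron. Radial glia divide and give rise to intermediate progenitors, these give rise to pyramidal neurons of Ammon's horn and granule neurons of the dentate gyrus, and interneurons migrate in from the ventral telencephalon. Cajal-Retzius cells, which secrete reelin, lie along the hippocampal fissure, while astrocytes and oligodendrocyte precursors have only begun to form. Astrocytes kept in serum lack most of these neighbours and grow attached to plastic.

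Between 17077780 and 24452419 fragments were recovered per AST or P0-NPC sample, and 3 fragments on a gene of 1 kb corresponded to 0.103 to 0.179 FPKM, counting error only. Mitochondrial genes took 2.94 to 4.70% of fragments in AST and 3.67 to 5.55% in P0-NPC. Pearson correlations of log2(FPKM + 1) across the tested genes, which are not independent replicates, were 0.984 to 0.995 within AST, 0.986 to 0.989 within P0-NPC and 0.695 to 0.712 between the groups. AST replicate 2 stood apart from the other AST samples. The chi-square of its fragment counts over genes, per degree of freedom, was 43.5 and 45.0 against replicates 1 and 3, beside 2.63 between those replicates and 15.0 to 20.7 between P0-NPC samples. In AST replicate 2, transcripts of up to 1 kb had a median log2 level 0.63 above the mean of the other AST samples while transcripts over 10 kb had a median difference of -0.27. Without this sample 5854 genes were higher and 6326 lower.

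Genes of glutamatergic neurons were high in P0-NPC and mostly low in AST, with a summed level of 510.0 to 605 FPKM per P0-NPC sample and 31.2 to 33.5 FPKM per AST sample. Of 20 listed genes of pyramidal and granule neurons, 19 were higher in P0-NPC, against 38.1% of all tested genes, and the median log2 fold change of the list was 3.04 (3.08 with the genes at 0 in AST at their lower bound). In bulk samples of this kind, fewer cells of a type and less RNA per cell cannot be told apart. The transcription factor Neurod6, a marker of pyramidal neurons, had 72.5, 67.9 and 89.7 FPKM in the P0-NPC samples and no fragment in any AST sample. Neurod2, a proneural factor of the same family, had 82.1, 74.2 and 96.8 FPKM against no fragment in AST. Taking 3 fragments per library as the floor, Neurod6 was at least 1013-fold and Neurod2 at least 1629-fold higher in P0-NPC. Neurod1, which is needed for granule neurons to form, had 60.2, 64.3 and 73.8 FPKM in P0-NPC and 0.153, 0.307 and 0.0987 FPKM in AST. Tbr1, a T-box factor of newly made glutamatergic neurons, had 17.1, 16.5 and 21.3 FPKM in P0-NPC and 0.0109, 0.0539 and 0.00982 FPKM in AST. In all 4 genes the lowest P0-NPC sample was far above the highest AST sample.

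The level of Zbtb18, a repressor required for hippocampal neurons, was the highest among the transcription factors of this list in P0-NPC, at 149.9, 149 and 175 FPKM against 12.9, 13.1 and 12.5 FPKM in AST (log2 fold change 3.52 ± 0.10, adjusted p = 5.26e-08). Prox1, which marks granule neurons of the dentate gyrus, had 11.3, 12.6 and 12.6 FPKM in P0-NPC and 1.14, 1.25 and 1.18 FPKM in AST (log2 fold change 2.59 ± 0.08, adjusted p = 9.84e-08). Vesicular glutamate transporters differed in level, with Slc17a6 (VGLUT2) at 8.69, 7.75 and 8.24 FPKM and Slc17a7 (VGLUT1) at 2.55, 6.12 and 3.47 FPKM in P0-NPC. Against P56-NPC 14 of the 20 genes were higher in P0-NPC and 4 lower, beside 39.0% and 39.7% of all genes tested there, with a median log2 difference of 1.33. In every list count against P56-NPC, members had also passed the filter for P0-NPC and AST. Of the 14245 genes that passed both filters, 6011 were higher and 5107 lower, with a median log2 difference of 0.08. The shares of 39.0% and 39.7% thus include genes that no such list count could hold. Slc17a7 was lower in P0-NPC than in P56-NPC, where its mean was 10.3 FPKM, by a log2 difference of -1.22 ± 0.23 (adjusted p = 0.00165). Camk2a, a kinase of mature synapses, had 4.34, 9.17 and 5.6997 FPKM in P0-NPC, above AST at 0.823, 0.793 and 0.801 FPKM and below the P56-NPC mean of 391 FPKM. In Slc17a7 and Camk2a, and in the calmodulin-binding Nrgn, replicate 2 was the highest P0-NPC sample. The single gene of the list that was lower in P0-NPC was Nrn1, a secreted growth factor of neurites, at 3.95, 4.87 and 3.71 FPKM against 7.29, 5.66 and 7.85 FPKM in AST (log2 fold change -0.61 ± 0.13, adjusted p = 0.00338).

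**Figure D1:**
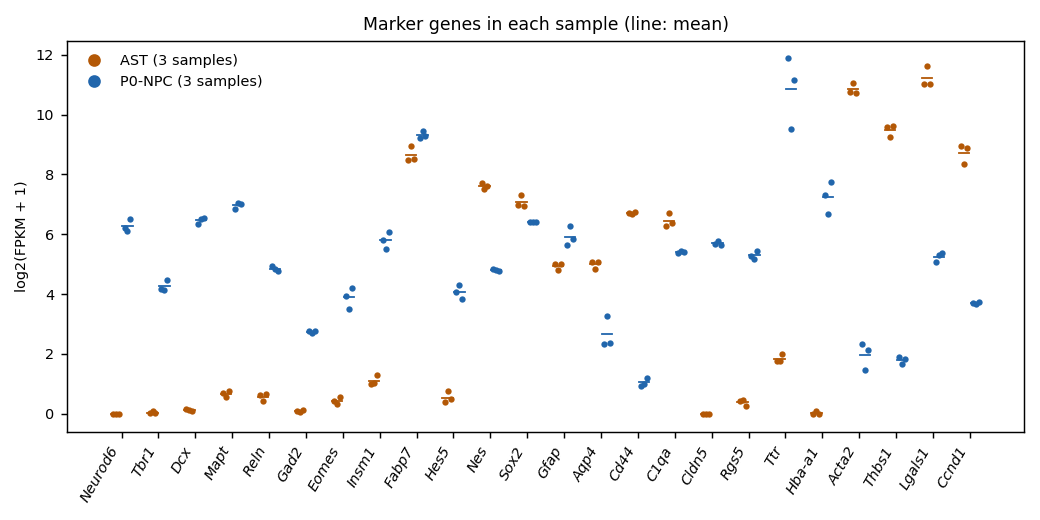
Levels of 24 marker genes as log2(FPKM + 1), with 1 point per AST or P0-NPC sample and a line at the mean of each group. Neuron, progenitor, endothelial and erythroid genes sit near 0 in AST and high in P0-NPC, Acta2, Thbs1, Lgals1 and Ccnd1 sit high in AST, and Sox2, Fabp7 and Gfap have smaller differences between the groups.

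Promoter stretches of these neuron genes are shown because genes of NEUROD factors, which bind E-boxes, were among the largest differences. The letters CAGATG, on either strand (CATCTG on the other), were searched in the 250 bases before each start site in the RefSeq promoter table (GRCm38.p6). Promoters were in the table for 16 of the 20 listed genes, and 7 of these held the letters, as did 16.3% of the 27025 genes with a promoter in the table. Genes with more start sites had more bases searched, and this was not matched between the list and all genes. The count is a description and names no site in use. Capitals mark the match in each stretch, which is written 5′ to 3′ on the strand of the gene.
Neurod2 (chr11:98329733-98329788, - strand): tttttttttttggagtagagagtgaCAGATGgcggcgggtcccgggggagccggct
Nrgn (chr9:37552923-37552978, - strand): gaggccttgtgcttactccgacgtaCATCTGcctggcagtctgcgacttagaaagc
Prox1 (chr1:190170976-190171031, - strand): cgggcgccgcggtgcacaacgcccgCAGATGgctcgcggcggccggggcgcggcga
Slc17a6 (chr7:51624407-51624462, + strand): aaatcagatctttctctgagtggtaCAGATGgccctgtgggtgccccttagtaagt
Neurod2, Nrgn, Prox1 and Slc17a6 are the genes of the list with a match before a single start site and a log2 fold change over 2. Their log2 fold changes were 6.41, 3.71, 2.59 and 3.20. The letters also occurred in the promoters of 5 of 16 listed immature neuron genes, 2 of 22 contractile genes and 0 of 25 cell cycle genes.

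Cajal-Retzius genes were almost absent from AST, where the summed level of the list was at most 1.89 FPKM, against 137 to 143 FPKM in P0-NPC. All 9 tested genes of 11 listed were higher in P0-NPC, against 38.1% of all tested genes, with a median log2 fold change of 2.48. Reln, which encodes reelin, had 29.4, 27.8 and 26.4 FPKM in P0-NPC and 0.555, 0.341 and 0.563 FPKM in AST, and its P56-NPC mean was 0.686 FPKM. Calb2, which encodes the calcium-binding protein calretinin, had 73.3, 76.8 and 77.7 FPKM in P0-NPC and 0.0342, 0.0566 and 0.0927 FPKM in AST (log2 fold change 6.18 ± 0.07, adjusted p = 1.03e-08). Trp73, a member of the p53 family found in these cells, had 7.15, 6.697 and 7.02 FPKM against 0.183, 0.0891 and 0.156 FPKM. Nhlh2, a helix-loop-helix factor of young neurons, had 10.05, 8.58 and 13.2 FPKM in P0-NPC and no fragment in AST. Against P56-NPC, 8 of the 9 genes were higher in P0-NPC, beside 39.0% of all 15394 genes tested in that comparison, with Trp73 different by 1.28 ± 0.09 on the log2 scale (adjusted p = 7.91e-06). With scaling by library size alone, the genes higher in P0-NPC than in P56-NPC made up 73.3% of the calls, against 49.6%, and the median log2 difference moved from -0.01 to 0.53, so differences of that size have no fixed direction.

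Genes of inhibitory neurons were higher as well, with a summed level of 124 to 146 FPKM in P0-NPC and 35.4 to 39.8 FPKM in AST. Of 17 tested GABAergic genes of 18 listed, 14 were higher and 2 lower in P0-NPC, against 38.1% and 40.9% of all tested genes, with a median log2 fold change of 1.78. Gad2, a synthetic enzyme of GABA, had 5.86, 5.44 and 5.78 FPKM in P0-NPC and 0.07105, 0.04196 and 0.0916 FPKM in AST. Lhx6, a factor of interneurons from the medial ganglionic eminence, had 11.5, 13.2 and 14.4 FPKM against 0.261, 0.277 and 0.213 FPKM (log2 fold change 3.48 ± 0.10, adjusted p = 6.38e-08). The neuropeptide gene Sst had 19.3, 25.2 and 26.1 FPKM in P0-NPC and no fragment in AST. Maf and Nkx2-1, both transcription factors of the same interneuron lineage, were the lower genes, with Nkx2-1 at 0.846, 1.02 and 1.29 FPKM in P0-NPC and 2.85, 3.64 and 2.58 FPKM in AST. Lhx6 and Nkx2-1 thus differed in opposite directions. Compared with P56-NPC, 6 genes of the list were higher and 7 lower in P0-NPC, close to the shares over all genes tested there (39.0% and 39.7%), and Gad1 and Gad2 were both among the lower.

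Genes of immature neurons had the highest levels among the neuron lists, with a summed level of 3126 to 3668 FPKM in P0-NPC and 392 to 411 FPKM in AST. In P0-NPC 22 of 24 were higher than in AST and 0 lower, against 38.1% and 40.9% of all tested genes. The median log2 fold change of the list was 3.00. Dcx, which encodes the microtubule protein doublecortin of migrating neurons, had 80.4, 90.5 and 93.2 FPKM in P0-NPC and 0.108, 0.0819 and 0.0596 FPKM in AST (log2 fold change 6.36 ± 0.09, adjusted p = 1.03e-08). Tubb3, the beta-tubulin of neurons, had 608, 566 and 728 FPKM in P0-NPC and 36.01, 51.3 and 34.7 FPKM in AST. Mapt, which encodes tau, had 114, 131 and 129 FPKM against 0.634, 0.465 and 0.686 FPKM (log2 fold change 6.300 ± 0.09, adjusted p = 1.15e-08). The SoxC factors Sox4 and Sox11 had 224, 191 and 249 FPKM and 89.8, 70.95 and 103 FPKM in P0-NPC. Several of these genes were well expressed in AST too. Stmn2, a tubulin-binding protein of growth cones, had 48.4, 66.7 and 46.3 FPKM in AST and 94.7, 104 and 129 FPKM in P0-NPC, and Cd24a, a surface protein of young neurons, had 108, 92.6 and 110.4 FPKM in AST and 248, 259 and 298 FPKM in P0-NPC. Both had lower means in P56-NPC than in AST (Stmn2 18.2 and Cd24a 43.6 FPKM).

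All 22 synapse genes were higher in P0-NPC than in AST, against 38.1% of all tested genes, with a median log2 fold change of 2.58. Snap25, a SNARE protein of vesicle release, had 13.6, 16.03 and 14.9 FPKM in P0-NPC and 0.0966, 0.0581 and 0.119 FPKM in AST (log2 fold change 3.86 ± 0.09, adjusted p = 2.6e-08). The glutamate receptor gene Gria1 had 29.96, 34.6 and 28.9 FPKM against 1.19, 1.11 and 1.47 FPKM. Against P56-NPC 9 of the 22 genes were higher and 10 lower in P0-NPC, close to the shares over all genes tested there (39.0% higher and 39.7% lower). The NMDA receptor subunit Grin2b was higher in P0-NPC than in P56-NPC by 1.78 ± 0.12 (log2, adjusted p = 5.98e-06), while Dlg4, the scaffold PSD-95, was lower by a log2 difference of -1.66 ± 0.10 (adjusted p = 2.64e-06). Syt4 and Snap25, both of the release machinery, differed by 2.94 ± 0.12 and -1.13 ± 0.09 in the same comparison.

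Axon guidance genes were mostly higher. Of 24 genes, 19 were higher and 4 lower in P0-NPC than in AST, against 38.1% and 40.9% of all tested genes. Receptors and adhesion proteins were among the higher genes. The netrin receptor Dcc had 13.8, 10.9 and 14.04 FPKM in P0-NPC and 0.08604, 0.0711 and 0.0777 FPKM in AST, and the axonal adhesion protein Cntn2 had 100.3, 80.7 and 95.4 FPKM against 0.0321, 0.0477 and 0.08102 FPKM (log2 fold change 6.46 ± 0.10, adjusted p = 1.15e-08). The 4 lower genes were all ligands. Ntn1, the netrin ligand of Dcc, had 4.42, 3.95 and 3.97 FPKM in P0-NPC and 25.7, 16.2 and 26.3 FPKM in AST (log2 fold change -2.19 ± 0.17, adjusted p = 1.03e-05). Slit3 and Slit2, ligands of the Robo receptors, had log2 fold changes of -1.56 ± 0.26 and -0.45 ± 0.13, and the ephrin Efna5 had one of -2.71 ± 0.09. Slit2 was not called with scaling by library size alone (-0.23). Other ligands were higher in P0-NPC, with Slit1 at 1.85 ± 0.11, Sema3c at 1.24 ± 0.09 and the ephrin Efnb3 at 5.29 ± 0.09.

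Ion channels and chloride transporters that change as neurons mature were mostly higher. Of 14 tested genes of 15 listed, 13 were called higher and 0 lower, against 38.1% and 40.9% of all tested genes. Slc12a5 (KCC2), which lowers neuronal chloride, had 2.54, 3.98 and 1.92 FPKM in P0-NPC, and Slc12a2 (NKCC1), which raises it, had 9.46, 6.71 and 7.86 FPKM. In P56-NPC both means were higher, at 15.7 and 32.5 FPKM. The sodium channel Scn3a of immature neurons was higher in P0-NPC than in P56-NPC by 1.64 ± 0.12 (log2, adjusted p = 8.9e-06).

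The label P0-NPC names precursor cells, and genes of dividing precursors were present beside the neuron genes. Of 14 tested genes of intermediate progenitors, from 15 listed, 12 were higher and 2 lower in P0-NPC than in AST, against 38.1% and 40.9% of all tested genes, with a median log2 fold change of 2.10 (2.26 with the gene at 0 in AST at its lower bound). Eomes (TBR2), the defining factor of these cells, had 14.4, 10.3 and 17.6 FPKM in P0-NPC and 0.344, 0.261 and 0.479 FPKM in AST (log2 fold change 3.45 ± 0.17, adjusted p = 8.57e-07). The proneural factor Neurog2 had 14.3, 11.2 and 16.4 FPKM, and Insm1, a zinc finger factor of neurogenic divisions, had 54.7, 44.4 and 67.1 FPKM in P0-NPC against 0.981, 1.05 and 1.46 FPKM in AST. Btg2 and Gadd45g, an antiproliferative and a stress-response gene, were the lower members, with Gadd45g at 32.1, 19.3 and 25.5 FPKM in P0-NPC and 176, 271 and 169.6 FPKM in AST. Compared with P56-NPC, 11 of the 14 genes were higher in P0-NPC and 3 lower, beside 39.0% and 39.7% of all genes tested there.

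Radial glia genes differed in both directions. Of 24 genes, 14 were higher, 7 were lower and 3 were not called, against 38.1% higher and 40.9% lower of all tested genes, and the median log2 fold change was 0.47 beside -0.07 over all tested genes. With scaling by library size alone 16 were higher and 7 lower, and the median of the list was 0.74. Beyond a log2 fold change of 1, 7 were higher and 6 lower, against 20.2% and 18.7% of all tested genes. The intermediate filament genes that are widely used as precursor markers were much higher in AST. Nes had 209, 183 and 195 FPKM in AST and 27.9, 26.7 and 26.1 FPKM in P0-NPC (log2 fold change -2.82 ± 0.10, adjusted p = 1.25e-07), and Vim had 1926, 2724 and 1908 FPKM in AST and 145, 114 and 168 FPKM in P0-NPC (log2 fold change -3.93 ± 0.22). The Notch target Hes1 had 49.4, 70.2 and 48.3 FPKM in AST and 6.95, 6.31 and 6.86 FPKM in P0-NPC, whereas Hes5, another Notch target, had 0.306, 0.687 and 0.395 FPKM in AST and 15.6, 18.7 and 13.4 FPKM in P0-NPC. These targets thus differed in opposite directions, by -2.87 ± 0.15 and 3.53 ± 0.14 on the log2 scale. Hopx, a homeodomain protein of dentate and outer radial glia, had 33.1, 35.005 and 28.5 FPKM in P0-NPC and 2.75, 3.19 and 1.598 FPKM in AST (log2 fold change 3.26 ± 0.18, adjusted p = 1.24e-06).

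Sox2, a factor that keeps neural stem cells undifferentiated, had 84.8, 84.4 and 84.3 FPKM in P0-NPC and a higher level, 126, 158 and 122 FPKM, in AST (log2 fold change -0.66 ± 0.12, adjusted p = 0.00145). Pax6, a factor of cortical radial glia, had 4.84, 4.28 and 4.81 FPKM in P0-NPC and 3.55, 3.48 and 3.73 FPKM in AST (log2 fold change 0.297 ± 0.08, adjusted p = 0.0108). Sox9, a factor of glia and stem cells, had 17.7, 15.3 and 16.4 FPKM and 18.6, 16.1 and 17.7 FPKM, and its groups overlapped. Fabp7, the fatty acid-binding protein of radial glia, was high in both, at 589, 704 and 619.8 FPKM in P0-NPC and 355, 496 and 365 FPKM in AST (log2 fold change 0.67 ± 0.18, adjusted p = 0.0104), and its P56-NPC mean was 62.7 FPKM. Without AST replicate 1 the log2 fold change of Fabp7 was 0.58 (limma adjusted p = 0.053). Tnc, the matrix protein tenascin C of stem cell niches, had 357, 319 and 366 FPKM in AST, 71.5, 69.8 and 68.8 FPKM in P0-NPC and a mean of 0.316 FPKM in P56-NPC. The BMP-induced genes Id1 and Id3 were lower in P0-NPC than in AST, by log2 fold changes of -2.32 ± 0.18 and -1.43 ± 0.14. Of the pluripotency genes, Pou5f1 and Nanog were at 0.346 FPKM or less in all 6 samples and were not tested.

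Patterning genes of the dorsal telencephalon were higher in P0-NPC. Of 20 listed, 16 were higher and 3 lower than in AST, against 38.1% and 40.9% of all tested genes. The median log2 fold change was 1.42 (1.62 with the gene at 0 in AST at its lower bound). The dorsal telencephalic factor Emx1 had 36.3, 28.3 and 34.7 FPKM in P0-NPC and 0.191, 0.294 and 0.247 FPKM in AST (log2 fold change 4.77 ± 0.11, adjusted p = 2.4e-08). Wnt8b and Wnt3a, ligands of the cortical hem next to the hippocampus, had 4.71, 3.77 and 4.04 FPKM and 1.54, 0.995 and 1.46 FPKM in P0-NPC, and Wnt3a had no fragment in AST. Meis1, a homeobox factor, was lower, at 0.0996, 0.179 and 0.2103 FPKM in P0-NPC against 1.39, 1.56 and 1.68 FPKM.

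Most cell cycle genes were lower in P0-NPC than in AST and higher than in P56-NPC. The list of 32 holds 5 genes of cell cycle inhibitors. Of 26 tested genes of the 27 others, 22 were lower and 1 higher than in AST, against 40.9% and 38.1% of all tested genes, and the median log2 fold change was -0.73 (-0.46 with scaling by library size alone, where 18 genes were lower). Mki67, a marker of dividing cells, had 11.1, 8.19 and 11.6 FPKM in P0-NPC and 14.9, 15.7 and 14.6 FPKM in AST (log2 fold change -0.52 ± 0.13, adjusted p = 0.00574), and a mean of 1.53 FPKM in P56-NPC. With scaling by library size alone Mki67 was not called (-0.25). The G1 cyclins had larger differences. Ccnd1, cyclin D1, had 488, 321 and 474 FPKM in AST and 11.97, 11.8 and 12.4 FPKM in P0-NPC (log2 fold change -5.01 ± 0.16, adjusted p = 1.06e-07). Ccnd2, cyclin D2, differed by -2.76 ± 0.11 on the log2 scale. Against P56-NPC, 25 of these 26 genes were higher in P0-NPC and 0 lower, beside 39.0% and 39.7% of all genes tested there.

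Of the 5 inhibitor genes, 3 were lower and 2 higher. Cdkn2a, the p16 and p19 gene, had 39.2, 65.5 and 41.9 FPKM in AST and 0.336, 0.0586 and 0.279 FPKM in P0-NPC (log2 fold change -5.32 ± 0.19, adjusted p = 1.78e-07). Cdkn1a, the p21 gene, had 238, 217 and 232 FPKM in AST and 10.4, 8.304 and 10.6 FPKM in P0-NPC, and Cdkn2b had a log2 fold change of -4.12 ± 0.09. By contrast Cdkn1c, the imprinted p57 gene of cells leaving the cycle, had 23.5, 18.04 and 26.9 FPKM in P0-NPC and 0.848, 0.895 and 0.871 FPKM in AST (log2 fold change 3.65 ± 0.14, adjusted p = 2.03e-07). Cdkn1b (p27) was higher by 0.85 ± 0.09.

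**Figure D2:**
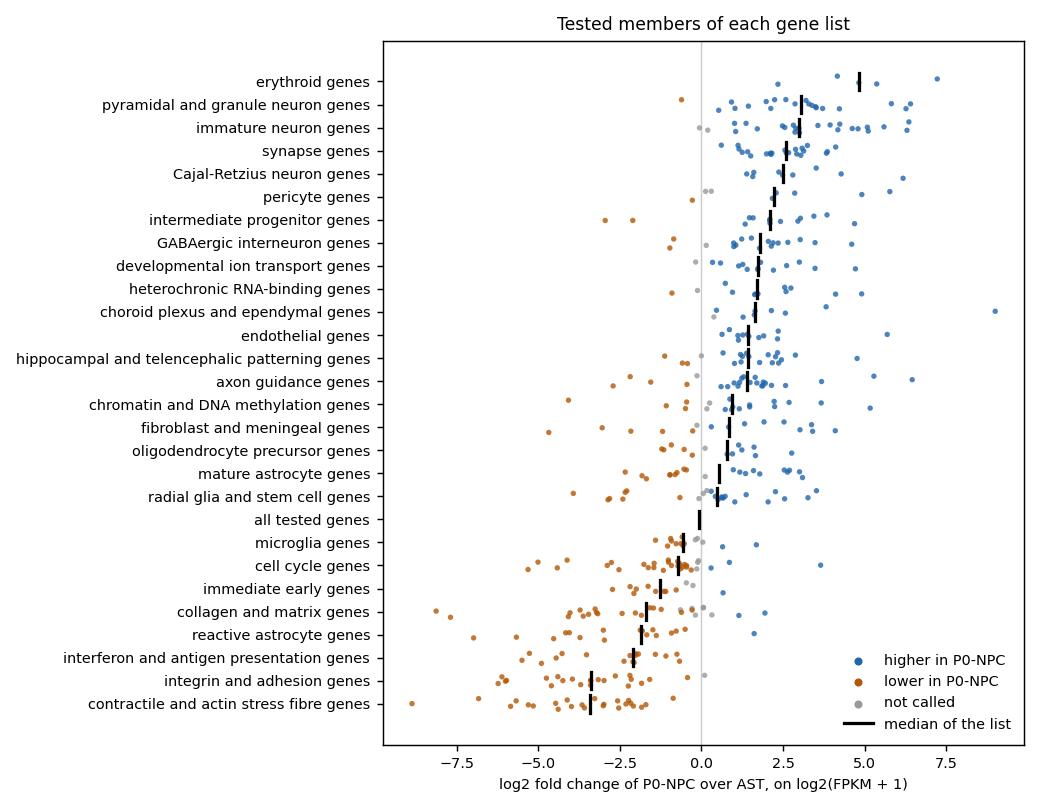
Log2 fold changes of P0-NPC over AST for the tested members of 27 gene lists, with 1 point per gene, coloured by its call, and a black line at the median of each list and of all tested genes. The lists of pyramidal, Cajal-Retzius, GABAergic and immature neurons and of the synapse have medians from 1.78 to 3.04, and the contractile and adhesion lists have medians of -3.43 and -3.40.

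Of the 27 lists plotted, that of the contractile cytoskeleton had the lowest median, -3.43. All 24 listed genes were lower in P0-NPC, against 40.9% of all tested genes, and 23 of them beyond a log2 fold change of 1. Acta2, the smooth muscle actin that also marks serum-activated cells, had 1742, 2113 and 1689.8 FPKM in AST and 4.001, 1.77 and 3.34 FPKM in P0-NPC, a log2 fold change of -8.88 ± 0.22 (adjusted p = 3.39e-08). Cnn1, the actin-binding protein calponin, had 115, 139.9 and 113 FPKM in AST and 0.0959, 0.0753 and 0.0663 FPKM in P0-NPC. Ccn1 and Ccn2, secreted matricellular proteins and well-known targets of YAP and of SRF, had log2 fold changes of -5.68 ± 0.22 and -5.85 ± 0.10. Myl9, a light chain of myosin, had 429.7, 601 and 423 FPKM in AST and 24.3, 17.1 and 24.9 FPKM in P0-NPC. The summed level of the list was 6369 to 7258 FPKM per AST sample and 441 to 502 FPKM per P0-NPC sample. Against P56-NPC, 8 of 22 tested genes were higher and 3 lower, beside 39.0% and 39.7% of all genes tested there, with a median log2 difference of 0.10.

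Serum response factor, encoded by Srf, binds the CArG box, and its cofactors respond to actin. A CArG box was found in the 250 bases before the start site of 5 of 22 contractile genes with a RefSeq promoter (22.7%), and of 1.62% of all 27025 genes with one. The motif was searched as the letters CC, then 6 bases that are each A or T, then GG, which reads the same on both strands. The stretches are shown because these genes were all lower in P0-NPC. Capitals mark each match, of which Srf had 2.
Cnn2 (chr10:79988519-79988578, + strand): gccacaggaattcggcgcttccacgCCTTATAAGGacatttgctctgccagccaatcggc
Myl9 (chr2:156775278-156775337, + strand): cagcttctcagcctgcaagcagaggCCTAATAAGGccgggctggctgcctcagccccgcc
Myl6 (chr10:128493025-128493084, - strand): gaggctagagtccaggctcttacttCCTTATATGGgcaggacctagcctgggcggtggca
Vcl (chr14:20929148-20929205, + strand): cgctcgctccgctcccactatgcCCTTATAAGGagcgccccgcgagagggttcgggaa
Srf (chr17:46556210-46556269, - strand): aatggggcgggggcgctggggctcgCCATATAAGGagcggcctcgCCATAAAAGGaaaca
The log2 fold changes of these genes were -5.16 for Cnn2, -4.39 for Myl9, -2.57 for Myl6, -2.23 for Vcl and -0.87 for Srf itself. Vcl was at 24.9, 7.16 and 27.1 FPKM in the AST samples and its log2 fold change was -2.81 without the low AST replicate 2. The letters GGAATG, bound by TEAD factors and searched on either strand with CATTCC as the other, were in 11 of the 22 promoters, among them Acta2, Ccn1 and Ankrd1, and in 14.4% of all promoters. In the lists of neurons and the cell cycle GGAATG was in 4 of 16 pyramidal, 3 of 16 immature neuron and 1 of 25 cell cycle promoters. The contractile list holds known targets of SRF and YAP, such as Ccn1 and Ccn2, so its motif shares were partly set by the choice of genes. They tell nothing of the difference between P0-NPC and AST. The number of start sites per gene was not matched here either, and no binding was measured.

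Most matrix and adhesion genes were lower in P0-NPC. Of 26 collagen and matrix genes, 18 were lower, 2 higher and 6 not called (16 lower and 4 higher with scaling by library size alone), against 40.9% lower and 38.1% higher of all tested genes, with a median log2 fold change of -1.71. Thbs1, thrombospondin 1, had 773, 604 and 792 FPKM in AST and 2.69, 2.18 and 2.55 FPKM in P0-NPC (log2 fold change -7.695 ± 0.13, adjusted p = 1.15e-08). Fn1, fibronectin, had 338, 214 and 347 FPKM against 15.5, 18.9 and 16.7 FPKM. Col6a2 and Col6a3 were the higher genes, with log2 fold changes of 1.15 ± 0.09 and 1.94 ± 0.11, and the basement membrane collagen Col4a1 was at 99.2, 66.4 and 97.8 FPKM in AST and 78.6, 61.9 and 71.9 FPKM in P0-NPC, with overlapping groups. Col4a1 was called lower only in the fit without AST replicate 2 (log2 fold change -0.48, limma adjusted p = 0.00527).

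Of 23 tested integrin and adhesion genes of 24 listed, 22 were lower and 0 higher, against 40.9% and 38.1% of all tested genes. Lgals1, the lectin galectin 1, had 2097, 3140.1 and 2054 FPKM in AST and 32.6, 38.3 and 39.96 FPKM in P0-NPC (log2 fold change -5.98 ± 0.20), and S100a11, a calcium-binding protein, had 1982, 3525 and 1993 FPKM against 29.2, 32.6 and 39.998 FPKM. Both transcripts are short, and in each AST replicate 2 was the highest sample. Itgb1, the common integrin beta subunit, had 717, 538 and 734 FPKM in AST and 62.01, 58.5 and 63.2 FPKM in P0-NPC (log2 fold change -3.402 ± 0.15, adjusted p = 4.23e-07). The fibronectin receptor subunit Itga5 had a log2 fold change of -3.398 ± 0.07.

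Reactive astrocyte genes were lower in P0-NPC in 17 of 18 tested members, from 24 listed, against 40.9% of all tested genes, with a median log2 fold change of -1.85. Cd44, the hyaluronan receptor, had 104, 101.8 and 107 FPKM in AST and 0.9096, 0.999 and 1.31 FPKM in P0-NPC (log2 fold change -5.67 ± 0.09, adjusted p = 1.15e-08). Timp1, an inhibitor of matrix proteases, had 321, 423 and 309 FPKM against 2.02, 1.35 and 1.92 FPKM. Serping1, a complement inhibitor, was the higher gene, at 11.5, 10.1 and 12.5 FPKM in P0-NPC and 3.13, 3.39 and 2.59 FPKM in AST. All 17 tested interferon and antigen presentation genes of 18 listed were lower, with Isg15, a ubiquitin-like protein induced by interferon, at 136, 229 and 133 FPKM in AST and 3.42, 1.86 and 2.58 FPKM in P0-NPC, and B2m, the light chain of MHC class I, at 848, 1184 and 859 FPKM against 82.1, 73.4 and 90.8 FPKM. Of 12 tested immediate early genes of 14 listed, 9 were lower and 1 higher, against 40.9% and 38.1% of all tested genes, and Fos was at 51.8, 12.8 and 35.3 FPKM in P0-NPC and 38.1, 42.7 and 39.7 FPKM in AST, with overlapping groups. The neurotrophin gene Bdnf was lower in P0-NPC as well, at 7.95, 7.91 and 7.58 FPKM in AST and 0.345, 0.475 and 0.321 FPKM in P0-NPC (log2 fold change -2.68 ± 0.09).

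Of 20 mature astrocyte genes, 10 were higher and 9 lower in P0-NPC, against 38.1% and 40.9% of all tested genes. Beyond a log2 fold change of 1, 9 were higher and 3 lower, against 20.2% and 18.7% of all tested genes. The median log2 fold change was 0.54 (0.82 with scaling by library size alone, where 11 were higher and 6 lower). The glutamate transporter Slc1a2 (GLT-1) had 20.4, 25.3 and 17.4 FPKM in P0-NPC and 1.82, 1.57 and 1.76 FPKM in AST (log2 fold change 3.01 ± 0.13, adjusted p = 4.46e-07), and Aldoc, an aldolase of astrocytes, had 85.5, 93.4 and 91.3 FPKM against 12.8, 14.2 and 12.1 FPKM. Gfap, the intermediate filament protein used to define astrocytes, was higher in P0-NPC as well, at 49.3, 76.98 and 55.6 FPKM against 31.1, 27.2 and 31.3 FPKM in AST (log2 fold change 0.97 ± 0.16, adjusted p = 0.000758). In the other direction, the water channel Aqp4 had 3.997, 8.69 and 4.1005 FPKM in P0-NPC and 32.7, 27.5 and 32.3 FPKM in AST, and the gap junction gene Gja1 had 5.83, 9.601 and 6.06 FPKM against 25.5, 22.6 and 26.4 FPKM. Of the defining markers of the AST label, Aldh1l1 was at 29.8, 27.2 and 28.7 FPKM in AST and, like Aqp4 and Gja1, lower in P0-NPC, while Slc1a2 was at 1.82 FPKM or less and Gjb6 and Slc7a10 at 0.0565 FPKM or less in every AST sample. All 20 genes were lower in P0-NPC than in P56-NPC, beside 39.7% of all genes tested there, with a median log2 difference of -3.43.

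Of 13 tested oligodendrocyte lineage genes of 16 listed, 7 were higher and 5 lower in P0-NPC, against 38.1% and 40.9% of all tested genes. Pdgfra, the receptor that defines oligodendrocyte precursors, had 7.94, 9.07 and 8.01 FPKM in P0-NPC and 0.363, 0.305 and 0.451 FPKM in AST (log2 fold change 2.77 ± 0.09, adjusted p = 1.16e-07), and Sox10, the lineage factor, had 2.38, 3.93 and 2.51 FPKM against 0.0782, 0.388 and 0.371 FPKM. Olig1 and Olig2, factors shared with other glial precursors, were lower in P0-NPC, with Olig2 at 9.88, 14.5 and 10.3 FPKM against 25.9, 27.7 and 26.4 FPKM in AST. The myelin gene Mbp had 1.698, 1.95 and 1.92 FPKM in P0-NPC and 0.282, 0.291 and 0.312 FPKM in AST, whereas its P56-NPC mean was 5271 FPKM.

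Other cell types of the tissue were present in P0-NPC. All 12 endothelial genes were higher than in AST, against 38.1% of all tested genes. Cldn5, the tight junction protein of brain endothelium, had 49.6, 53.4 and 49.4 FPKM in P0-NPC and no fragment in AST, which is at least 442-fold higher at the floor of 3 fragments per library. The vascular receptor Kdr (VEGFR2) had 8.55, 5.87 and 7.52 FPKM against 2.69, 1.81 and 2.87 FPKM. Of 8 pericyte genes 5 were higher and 1 lower (6 and 0 with scaling by library size alone), against 38.1% and 40.9% of all tested genes, and leaving out AST replicate 1 or 3 or P0-NPC replicate 1 or 3 also left 0 lower. The higher genes included Rgs5, a regulator of G protein signalling in mural cells, at 37.5, 35.4 and 42.8 FPKM in P0-NPC and 0.354, 0.391 and 0.1895 FPKM in AST, and Vtn, vitronectin, at 51.2, 57.6 and 61.4 FPKM against 0.0294, 0.0486 and 0.0796 FPKM. The summed level of the endothelial list was 118 to 123 FPKM in P0-NPC and 21.2 to 21.6 FPKM in AST.

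Fibroblast and meningeal genes gave 9 higher and 5 lower of 15 tested, from 16 listed, against 38.1% and 40.9% of all tested genes. Dcn, the proteoglycan decorin, had 10.99, 12.8 and 12.1 FPKM in P0-NPC and 0.286, 0.237 and 0.221 FPKM in AST, and Slc6a13, a GABA transporter of the meninges, had 14.8, 20.7 and 15.1 FPKM against 0.0205, 0.03396 and 0.0371 FPKM. Fmod, fibromodulin, and Col1a1 were lower in P0-NPC, with Fmod at 237, 218 and 232 FPKM in AST and 7.1003, 8.09 and 8.73 FPKM in P0-NPC. All 15 genes were higher in P0-NPC than in P56-NPC, beside 39.0% of all genes tested there. The 5 tested erythroid genes of 8 listed were higher, with a median log2 fold change of 4.82 (6.89 with genes at 0 in AST at their lower bound), with Hba-a1 at 159, 102.4 and 215 FPKM in P0-NPC and at most 0.0607 FPKM in AST, although hemoglobin genes took only 0.0148 to 0.0298% of the P0-NPC fragments. Hba-a1 and Hba-a2 are near-identical copies, and how their shared reads were split is not known.

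Microglia genes were present in both the culture and the tissue. Of 14 tested genes of 16 listed, 9 were lower and 2 higher in P0-NPC, against 40.9% and 38.1% of all tested genes, with a median log2 fold change of -0.58 (7 lower and a median of -0.30 with scaling by library size alone). Beyond a log2 fold change of 1, 2 were lower. The complement gene C1qa had 76.3, 103 and 81.8 FPKM in AST and 40.6, 42.3 and 41.6 FPKM in P0-NPC (log2 fold change -1.04 ± 0.12, adjusted p = 0.000107), and the lysosomal protease Ctss had 67.3, 80.04 and 78.2 FPKM against 22.6, 30.7 and 30.3 FPKM. P2ry12, a receptor of resting microglia, went the other way, at 3.33, 5.44 and 4.49 FPKM in P0-NPC and 0.726, 0.523 and 0.761 FPKM in AST. The summed level of the list was 384 to 458 FPKM in AST and 214 to 263 FPKM in P0-NPC, so the AST cultures were not free of these transcripts.

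The choroid plexus, a secretory epithelium next to the hippocampus, had the genes that varied most among the P0-NPC samples. Of 9 tested choroid plexus and ependymal genes of 10 listed, 8 were higher and 0 lower, against 38.1% and 40.9% of all tested genes. The summed level of the list was 817 to 3920 FPKM in P0-NPC and 50.2 to 57.1 FPKM in AST. Ttr, which encodes transthyretin, had 3747, 725 and 2265 FPKM in P0-NPC replicates 1, 2 and 3 and 2.41, 2.37 and 2.95 FPKM in AST (log2 fold change 9.01 ± 0.52, adjusted p = 1.65e-06). Over 4268 protein-coding genes with a mean of at least 10 FPKM in P0-NPC, the median coefficient of variation was 7.13%, and 37 genes were over 30%. The 5 most variable were Aqp1, Kcne2, Clic6, Ttr and Folr1, at 60.9 to 73.4%. Aqp1, a water channel of this epithelium, had 36.7, 6.71 and 18.4 FPKM, and Folr1, a folate receptor that it carries, had 20.4, 5.05 and 12.3 FPKM. Replicate 1 was highest and replicate 2 lowest in all 5, and also in Otx2, the transcription factor that defines the choroid plexus, at 12.9, 5.19 and 7.94 FPKM. Fos had the same order of replicates. The neuropeptide gene Nts and Nrgn had replicate 2 highest, at 5.39, 17.5 and 9.37 FPKM and 14.2, 35.8 and 20.2 FPKM. How far the share of choroid plexus in each dissection set other values was not tested.

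**Figure D3:**
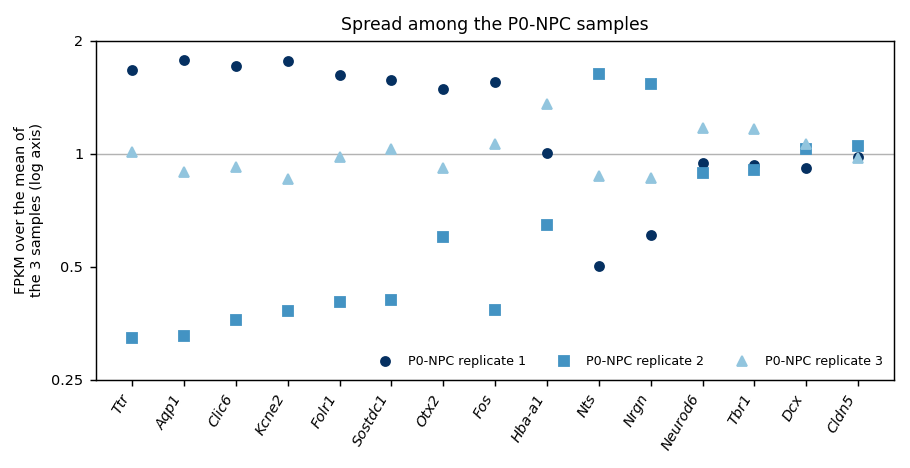
FPKM of 15 genes in each P0-NPC sample divided by the mean of the 3 samples, on a log axis. Ttr and the other choroid plexus genes are high in replicate 1 and low in replicate 2, while Dcx and Cldn5 lie near 1 in all 3 samples.

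Many gene families have a member that neurons use in place of a general one. For 23 such pairs, the share of the neuronal member in the summed FPKM of the pair was taken in each sample. The share was above that of every AST sample in all P0-NPC samples for 21 pairs, and the neuronal member was itself called higher in 22 pairs, against 38.1% of all tested genes. The general member was called lower in 18 pairs, against 40.9% of all tested genes, higher in 1 and not called in 4. In 17 pairs the neuronal member was called higher and the general member lower. With scaling by library size alone the general member was lower in 14 pairs and higher in 3. A switch within cells is known from the subunits of the BAF chromatin remodeller during neuronal differentiation. In these bulk samples, such a switch and a different mix of cells cannot be told apart. Actl6b (BAF53b) held 66.4, 68.8 and 70.9% of the pair with Actl6a (BAF53a) in P0-NPC and 0.424, 0.255 and 0.386% in AST. Ss18l1 (CREST) held 70.5, 72.3 and 70.8% of the pair with Ss18 in P0-NPC and 14.3, 16.7 and 13.2% in AST, and Dpf1 held 55.98, 60.4 and 58.9% of the pair with Dpf2 against 15.3, 14.6 and 15.1%.

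Pairs of RNA-binding proteins differed in the same direction. Ptbp2, the neuronal splicing repressor that replaces Ptbp1, held 37.99, 39.02 and 34.4% of that pair in P0-NPC and 7.96, 9.67 and 7.63% in AST. Elavl3 (HuC) held 85.8, 87.7 and 84.9% of the pair with Elavl1 (HuR) in P0-NPC and 8.44, 7.004 and 7.42% in AST. Among the tubulins, Tubb3 held 99.05, 99.01 and 99.2% of the pair with Tubb6 in P0-NPC and 14.4, 16.6 and 14.4% in AST. The synaptic SNARE Snap25 held 72.3, 74.7 and 74.6% of the pair with Snap23 and 0.781, 0.652 and 1.06% in AST. The neuronal member had the larger mean share in 14 pairs in P0-NPC.

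In the remaining pairs the P0-NPC shares were not all above those of AST. Eef1a2, the elongation factor of mature neurons and muscle, held 0.631, 1.02 and 0.707% of the pair with Eef1a1 in P0-NPC and 0.601, 0.695 and 0.556% in AST, with overlapping groups. Epb41l3, a membrane skeleton protein, held 34.9, 32.1 and 35.8% of the pair with Epb41l2 in P0-NPC and 38.05, 44.3 and 38.03% in AST, so that its share was lower in every P0-NPC sample, and Epb41l3 itself was lower by -1.399 ± 0.08. Rbfox2 was the single general member that was higher in P0-NPC, by 2.21 ± 0.15, and Rbfox3 (NeuN) still held only 22.5, 21.4 and 21.9% of that pair. Tubulins, actins and elongation factors have near-identical copies, so their shares rest on how the counting split shared reads.

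**Figure D4:**
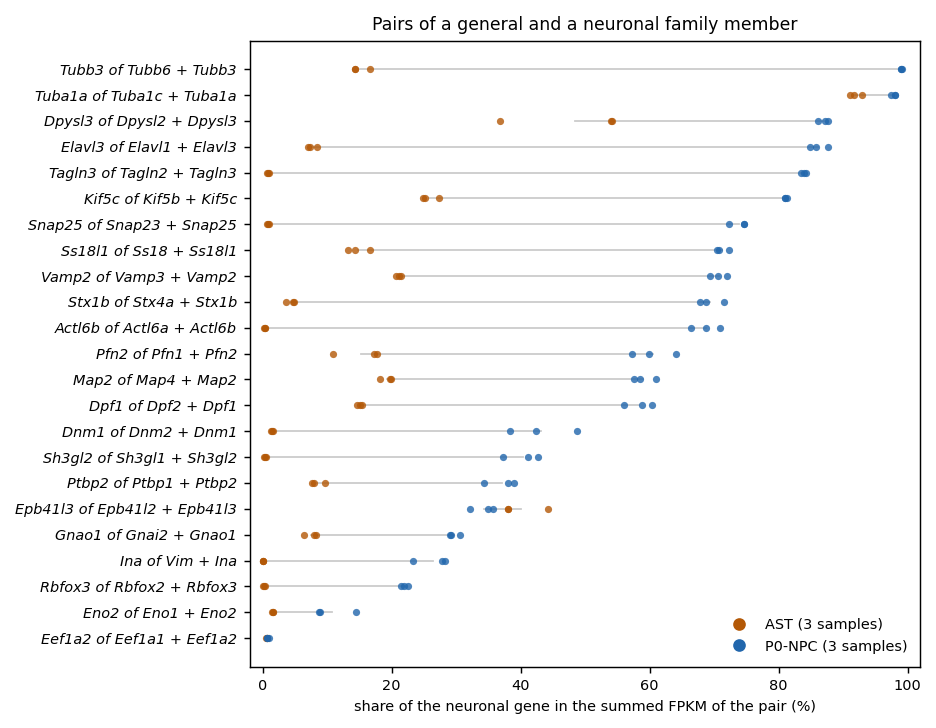
Share of the neuronal gene in the summed FPKM of each of 23 pairs, in percent, with 1 point per AST or P0-NPC sample and a grey line between the group means. In 21 pairs every P0-NPC point lies to the right of every AST point, and Eef1a2 and Epb41l3 are the exceptions.

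Of 18 tested chromatin genes of 19 listed, 12 were higher and 4 lower (15 and 2 with scaling by library size alone), against 38.1% and 40.9% of all tested genes. Rcor2, a partner of the REST repressor complex in neural precursors, had 52.4, 39.3 and 50.8 FPKM in P0-NPC and 0.321, 0.328 and 0.358 FPKM in AST (log2 fold change 5.17 ± 0.12, adjusted p = 2.36e-08), and Rest itself was lower, at 6.37, 5.89 and 5.29 FPKM against 8.16, 8.32 and 8.65 FPKM, a difference that was not called with scaling by library size alone. Hmga2, an architectural protein of fetal stem cells, had 18.4, 15.6 and 17.5 FPKM in AST and 0.103, 0.0862 and 0.0322 FPKM in P0-NPC (log2 fold change -4.08 ± 0.09). Of 12 tested RNA-binding genes of developmental timing and neuronal splicing, from 14 listed, 10 were higher and 1 lower. Celf3, a neuronal splicing regulator, had 30.97, 33.3 and 35.5 FPKM in P0-NPC and 0.0763, 0.144 and 0.197 FPKM in AST, and Srrm4, the splicing factor of neuronal microexons, had 9.93, 9.301 and 9.89 FPKM against 0.639, 0.602 and 0.565 FPKM. The imprinted long noncoding RNA H19 was at 59.9, 41.7 and 58.6 FPKM in P0-NPC and 4.92, 4.39 and 5.34 FPKM in AST, and had a P56-NPC mean of 0.0736 FPKM.

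Long genes were higher in P0-NPC more often than short ones. Among 12743 tested protein-coding genes, those with a genomic span of up to 10 kb had a median log2 fold change of -0.33, and 31.2% of them were called higher. For spans of 10 to 30, 30 to 100 and 100 to 300 kb the medians were -0.19, -0.03 and 0.20. The 409 genes over 300 kb had a median of 0.99, and 67.5% were higher and 20.5% lower. Without AST replicate 2 the medians of the shortest and longest class were -0.25 and 0.94, and with scaling by library size alone they were -0.07 and 1.201. With limma-voom on the recovered fragments they were -0.37 and 1.53. Neuronal adhesion genes are among the longest of the genome, and Cntnap2 and Lsamp had log2 fold changes of 1.998 and 2.67. Dmd, which encodes dystrophin, and the receptor gene Fgfr2 were long genes that were lower, by log2 fold changes of -1.03 and -0.78. In the comparison of P0-NPC with P56-NPC the same class over 300 kb had a median log2 difference of 0.13.

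**Figure D5:**
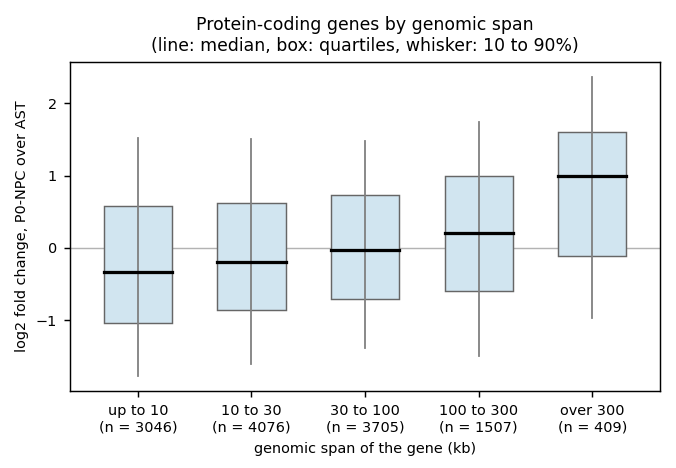
Log2 fold change of P0-NPC over AST for 12743 protein-coding genes in 5 classes of genomic span in kb, with the number of genes under each class, the median as a line, the quartiles as a box and the 10th to 90th percentile as whiskers. The median goes from -0.33 in the class up to 10 kb to 0.99 in the class over 300 kb.

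Of the 12 protein-coding genes with the largest log2 fold changes in each direction, the higher ones were Ttr, Islr2, Hba-a1, Cntn2, Neurod2, Dcx, Mapt, Neurod6, Calb2, Ptgds, Cdk5r1 and Cnih2. Islr2, a membrane protein of growing axons, had 237, 198 and 242 FPKM in P0-NPC and 0.332, 0.258 and 0.273 FPKM in AST, and Cdk5r1, the p35 activator of the kinase CDK5, had 122, 116 and 143 FPKM against 1.19, 0.948 and 0.996 FPKM. The lower ones included Acta2, Thbs1, Timp1, Crct1, Cnn1, Tnfrsf12a, Gdf15, F3, S100a6, Hbegf and S100a11. F3, the tissue factor of blood clotting, had 359, 397 and 349 FPKM in AST and 2.85, 4.06 and 4.32 FPKM in P0-NPC, and a P56-NPC mean of 86.4 FPKM. Crct1, named for cysteine-rich C-terminal sequence, had 109, 147 and 109.5 FPKM in AST and no fragment in any P0-NPC or P56-NPC sample.

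The most abundant transcripts differed as well. In P0-NPC the highest mean FPKM of protein-coding nuclear genes belonged to Eef1a1, Ttr, Tuba1a, Tubb2b, Rplp1, Tmsb4x, Eef2, Marcksl1, Rplp0 and Ptma. In AST they belonged to Igfbp2, Tmsb4x, Eef1a1, S100a11, Lgals1, Vim, Rplp1, Acta2, Ckb and Actb. Igfbp2, an insulin-like growth factor binding protein, had 4801, 6283 and 4591 FPKM in AST and 203, 148 and 180.2 FPKM in P0-NPC (log2 fold change -4.87 ± 0.22, adjusted p = 4.46e-07). Tubb2b, a beta-tubulin of developing neurons, had 1246, 1178 and 1326 FPKM in P0-NPC and 336, 378 and 324 FPKM in AST. Gapdh, often used as a reference gene, had 41.3, 2.73 and 54.5 FPKM in AST and 1.63, 1.404 and 0.984 FPKM in P0-NPC, with AST replicate 2 far below the other AST samples. Its log2 fold change was -3.15 ± 0.90, and -4.38 without AST replicate 2. Gapdh has near-identical pseudogenes between which the counting could have split reads, which was not tested, so its values are uncertain.

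Across the 15010 tested genes, every P0-NPC sample was above every AST sample for 5893 (39.3%) and below every AST sample for 6323 (42.1%). No fragment was found in any AST sample for 198 tested genes, of which 60 were protein-coding, and in any P0-NPC sample for 55, of which 21 were protein-coding. Of 718 tested long noncoding RNA genes, 405 were higher and 192 lower, while of the protein-coding genes 4777 were higher and 5506 lower. Of 22 tested genes that the study names for its own RNA-seq or RT-PCR, from 26, 10 were higher and 10 lower in P0-NPC, near the 38.1% and 40.9% of all tested genes. The study chose the pathways of some of these genes from its own RNA-seq, so the list is no independent evidence. Miat, a long noncoding RNA of the nervous system, had 36.4, 44.2 and 24.9 FPKM in P0-NPC and 0.07701, 0.127 and 0.0348 FPKM in AST.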

How the data were processed

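The authors prepared libraries from total RNA (NEBNext Ultra), read them from both ends on an Illumina platform and discarded low-quality and adapter-containing reads. The deposited table holds FPKM values of 55862 genes in 12 samples, which the authors had computed after scaling the libraries between samples. The aligner and counter of this table are not given in the sources used here. The submitters' processing notes list Bowtie 0.12.2 and mm8, while 54985 of 55240 shared gene positions are those of GRCm38. Groups follow the labels. Every value under 200 fragments was a whole multiple of 1 fragment within 0.01, so fragment numbers were recovered and whole-fragment depth is known.

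Values were tested as log2(FPKM + 1) with limma 3.58.1 in R 4.3.3, with a trended prior, Benjamini-Hochberg adjustment and a mean of at least 1 FPKM in either group, for P0-NPC against AST and P0-NPC against P56-NPC, 3 samples per group. Gene lists and pairs are described without a test by counts, medians and the share of calls over all genes. The members and lists were chosen with earlier results of these data known. Named genes are list members chosen as defining markers or by size of change, both members of each pair, the 12 protein-coding genes of largest change in each direction (mean of at least 10 FPKM, no overlap) and the 10 of highest level in each group. H19, Miat, the longest genes and the most variable P0-NPC genes were named after their values were seen. Some genes that this rule names are not reported here. The inhibitor genes were set apart from the cell cycle list after its values were seen (25 lower and 3 higher of 31 tested with them). Promoters are those of the RefSeq table on GRCm38.p6. The fits were also run on simulated data as a test of the code, and the outcome is not reported here. The sample numbers did not pair the groups, since same-numbered P0-NPC and AST samples had residual correlations of 0.08, -0.08 and -0.09. Alternatives were upper-quartile scaling, library size alone, no filter, a mean of at least 5 FPKM, all 4 groups in the model, a pseudocount of 0.1, a threshold of 0.01 for the adjusted p, a change larger than 1 on the log2 scale, a replicate block, limma-voom with TMM factors on the recovered fragments, and leaving out each sample in turn.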

Additional observations from a re-analysis of the deposited data

Results flagged for a closer look

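Some named genes were called in opposite directions against AST in P0-NPC and in P56-NPC, with a called difference between P0-NPC and P56-NPC itself. Both comparisons with AST share the same AST samples. Values in parentheses are log2 differences of P0-NPC over P56-NPC from the limma fit of these groups, with adjusted p-values of at most 0.00019 (Pax6).

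Higher in P0-NPC than in AST, and lower in P56-NPC than in AST, were Fabp7 (3.32), Stmn2 (2.51), Cd24a (2.60), Sema3c (4.66), Pax6 (0.59), Col6a2 (2.82), Serping1 (2.05), Kdr (2.43), H19 (5.65), Tuba1a (2.24) and Tubb2b (2.90). They include genes of radial glia, young neurons, vessels and the tubulins of developing neurons. The value of Pax6 is close to the shift of 0.53 that scaling by library size alone gave in this comparison.

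Lower in P0-NPC than in AST, and higher in P56-NPC than in AST, were Aqp4 (-3.32), Gja1 (-3.42), Aldh1l1 (-1.72), Olig1 (-2.94), Olig2 (-2.68), C1qa (-2.33), Ctss (-3.03), Epb41l3 (-1.85), Epb41l2 (-1.81) and Fgfr2 (-1.65). Astrocyte, oligodendrocyte lineage and microglia genes make up most of these, and the P56-NPC samples came from another region than the hippocampus.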

How the results depend on the processing

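Against AST, the number of genes higher in P0-NPC was 8597 with no filter on low values and 3087 with a mean of at least 5 FPKM, in place of 5713, because these settings change how many genes are tested. A log2 fold change beyond 1 left 3029 higher and 2813 lower. Under all other alternatives both counts stayed within 1.5 times, and leaving out 1 sample at a time gave 5436 to 5854 higher and 5711 to 6326 lower. Against P56-NPC, library size alone gave 9428 higher and 3438 lower, a mean of at least 5 FPKM 3773 and 3943, and a log2 difference beyond 1 gave 2037 and 2653. Leaving out 1 sample at a time gave 5568 to 5829 higher and 5804 to 6022 lower in that comparison.

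With the replicate number as a block, 5607 genes were higher and 6047 lower than in AST, and 5973 higher and 6103 lower than in P56-NPC. The samples share only a number, and the block lost the call of Eef2 among the named genes.

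Named genes whose direction turned were not called under any of these settings. Sox9 was at 0.196, Rplp0 at 0.12 with library size alone, and Eef1a1 at -0.030 with upper-quartile scaling. Leaving out 1 sample at a time gave -0.0440 to 0.163 for Eef1a1 (lowest without P0-NPC replicate 3) and -0.88 to 0.092 for Fos (highest without P0-NPC replicate 2). Fabp7, Slc12a2, Eef1a2 and Eef2 lost their calls when 1 sample was left out, with log2 fold changes of 0.23 to 0.58 then. Slc12a2, Eef1a2 and Eef2 also lost them with upper-quartile scaling and with no filter, Slc12a2 and Eef1a2 with all 4 groups in the model, and Tuba1a (limma adjusted p = 0.0528) and Rplp1 (0.104) with no filter. Counts of ion transport genes and of neuronal pair members include Slc12a2, Eef1a2 and Tuba1a. The cause of these changes was not tested. With 3 samples per group whose independence is unknown, a single library such as AST replicate 2 moves levels of very short and very long transcripts, and 3 fragments on a transcript of 1 kb correspond to at most 0.187 FPKM, and to less on longer ones.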
